A study of Mus musculus with 12 samples.

Results

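The 78 genes described here encode the machinery of the motile cilium: axonemal dynein heavy chains (Dnah), dynein intermediate chains (Dnaic), dynein axonemal assembly factors (Dnaaf), cilia and flagella associated proteins (Cfap), radial spoke heads and stalks (Rsph), tektins (Tekt), the nexin-dynein regulatory complex (Drc), intraflagellar transport proteins (Ift), and the single genes Hydin, Foxj1, Ccdc39 and Ccdc40. They were taken by symbol from a table of 49585 genes. The symbols matched 81 rows, and the 78 members are those that reached 1 CPM (read counts scaled to library size) in 3 or more of the 12 libraries, a level that 16126 genes met. By family they comprise 25 Cfap, 15 Dnah, 14 Ift, 7 Rsph, 5 Tekt, 4 Dnaaf, 2 Dnaic, 2 Drc and the 4 single genes. The Dnah rows include Dnah2os, an RNA transcribed from the opposite strand of Dnah2 and not a dynein.

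Poly-A RNA from mouse lung was sequenced in 4 groups of 3 libraries each. The mice carried the strain label Balb/cJ and were wild type (WT) or lacked Rgs4 (KO), whose product shortens signals from G protein coupled receptors. Within each genotype 3 libraries came from lungs given Aspergillus fumigatus (Af), a mould, and 3 from controls given phosphate-buffered saline (PBS), in a model of asthma. Libraries are named by group and by the sample number in the labels, which is 9 to 11 for KO_PBS, 12 to 14 for KO_Af, 15 to 17 for WT_PBS and 18 to 20 for WT_Af. The sources used here do not give how the Rgs4 allele was made, the age of the mice or the dose and duration of exposure. They also do not say that the libraries of a group came from separate animals, so a p-value reflects only how far these libraries spread.

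Motile cilia of the airway beat to move mucus and inhaled particles out of the lung. Each has an axoneme of microtubule doublets around a central pair. Dynein arms on the doublets supply the force, radial spokes and central pair projections control it, and the nexin-dynein regulatory complex and tektins hold the structure together. Dynein arms are built in the cytoplasm by the assembly factors, and large cargo enters the cilium on intraflagellar transport trains, which primary cilia of other cell types also use. Transcription factors of the RFX family and FOXJ1 drive the motile cilium programme in multiciliated cells.

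Because RFX and forkhead factors are the known regulators, the promoters were read for their core letters. RefSeq promoter windows, 250 bases before to 50 after a start on GRCm38.p6, were found for 63 of the 78 symbols, in 70 windows. The RFX half-site GTTGCCA, on either strand, stood in 14 of these windows (20.0%), against 4.38% of 32851 windows of all genes. A forkhead core, TGTTTAC or TGTTTGC, stood in 9 member windows (12.9%), against 8.48% of all. The full X-box (GTTGCC, up to 3 bases, then GGNAAC), which can overlap the half-site, stood in 1 member window (1.43%), against 0.551%. The stretches below are a selection: half-sites of some members that the results return to, and the X-box of Ift57. The motif is in capitals, 5′ to 3′ on the gene's strand. A match in letters is a description of the window and does not show that a factor binds there.
Hydin, chr8:110266945-110266976, plus strand: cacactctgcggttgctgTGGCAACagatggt
Cfap44, chr16:44394761-44394798, plus strand: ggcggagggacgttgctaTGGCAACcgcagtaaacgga
Drc1, chr5:30281363-30281392, plus strand: caggtgactgctttccctTGGCAACggctt
Tekt1, chr11:72361883-72361915, minus strand: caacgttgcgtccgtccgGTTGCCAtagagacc
Dnaaf2, chr12:69198430-69198457, minus strand: tcctcccaggcgttactaTGGCAACaaa
Ift57, chr16:49699216-49699264, plus strand, the X-box: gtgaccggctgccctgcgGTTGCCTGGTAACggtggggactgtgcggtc
In Hydin, Cfap44, Drc1 and Dnaaf2 the half-site lies on the opposite strand (read as TGGCAAC), and in Tekt1 it lies on the gene's own strand. The genes shown did not share 1 outcome with Af. Hydin, Cfap44 and Drc1 were lower in both genotypes, and Tekt1 was called lower in WT. Dnaaf2 was called higher in KO, and Ift57 was called in neither genotype (0.02 and -0.03 on the log2 scale). Among members not shown that had a half-site before the start, Cfap58, Cfap74, Cfap161 and Dnah7b were called lower in both genotypes. Cfap20 was called lower in KO alone, and Ift27 in neither.

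Library totals ran from 20708884 to 30229446 reads, so that 3 reads, the limit that a count of 0 allows, correspond to 0.098 to 0.144 CPM (counting error only). Rgs4 itself (ENSMUSG00000038530.11) was at 20.7 to 25.8 CPM in WT_PBS, 42.7 to 48.8 CPM in WT_Af and 0.571 to 1.47 CPM in the 6 KO libraries. The libraries KO_Af 12 and WT_PBS 17 each stood apart from the others of their own group. The first had more signal from short genes: relative to WT_PBS, the median over all tested genes was 0.67 (log2) for those with under 2 kb of exon and -0.56 for those with 8 kb or more, against 0.25 to 0.35 and -0.31 to -0.19 in the other 5 Af libraries. The second had basal cell markers summing to 71.6 CPM, against 11.6 and 24.4 CPM in the other WT_PBS libraries. Among Af libraries that sum was also high in KO_Af 12 (81.0 CPM) and WT_Af 18 (62.7 CPM). Counts of members are therefore also given without these libraries.

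The tissue carried a ciliated cell signature that does not rest on the members. All 15 markers of ciliated cells outside the axoneme passed the level filter, and together they summed to 1558 to 1849 CPM in WT_PBS and 1345 to 1775 CPM in KO_PBS. Of 6 spermatid genes, which would mark the other cell with a motile axoneme, 0 passed the filter, and their summed level was at most 1.77 CPM in any library. Of the members, 73 were at 1 CPM or more in all 12 libraries. The other 5 met the level in fewer, and among them Tekt3 (3 libraries) and Cfap73 (5 libraries) did so in PBS libraries only, which favours a lower call with Af. Just outside lay Dnah14, at 0.116 to 0.768 CPM, and Rsph6a was at 0 in every library. The third excluded row was Ift88os, an antisense RNA. Exons of 32 members overlap those of another annotated gene, on the opposite strand in 31 and on the same strand in 4 (Cfap43, Dnaaf2, Dnaaf3 and Rsph10b). These include Hydin, Ccdc39, Dnah10 and Dnaic1, and reads in the shared stretches cannot be assigned with certainty when the strand setting is unknown.

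Levels can be compared between genes only per length of exon. On that scale (WT_PBS mean, CPM per kb of merged exons) Foxj1, the master regulator, was the highest member at 44.5. It was followed by Ift20, a small transport protein that also works at the Golgi, at 22.1, by the radial spoke head gene Rsph1 at 17.4 and by Cfap126 at 15.4. The dynein heavy chains were low, between 0.08 for Dnah17 and 3.15 for Dnah6, and Hydin, a very large central pair protein, stood at 1.37. Levels below are in CPM after the authors' TMM adjustment (a trimmed mean scaling between libraries), and differences are on the scale log2(CPM + 0.5), with an adjusted p from limma over all genes tested.

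Exposure to Af was accompanied by lower RNA for most members in both genotypes. In WT, 59 of 78 members (75.6%) were called lower and 1 higher at an adjusted p under 0.05 in limma. Over all genes tested 51.8% were called, 25.6% lower and 26.2% higher. In KO, 53 of 78 members (67.9%) were called lower and 2 higher, against 57.9% of all genes called, 29.2% lower and 28.7% higher. The members' median log2 difference was -0.78 in WT and -0.62 in KO, and that of all genes tested was -0.02 in both. Among the 73 members present at the filter level in every library, 55 were lower in WT and 50 in KO. Lung tissue is a mixture, and fewer ciliated cells and less ciliary RNA per cell cannot be told apart in these libraries.

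**Figure D1:**
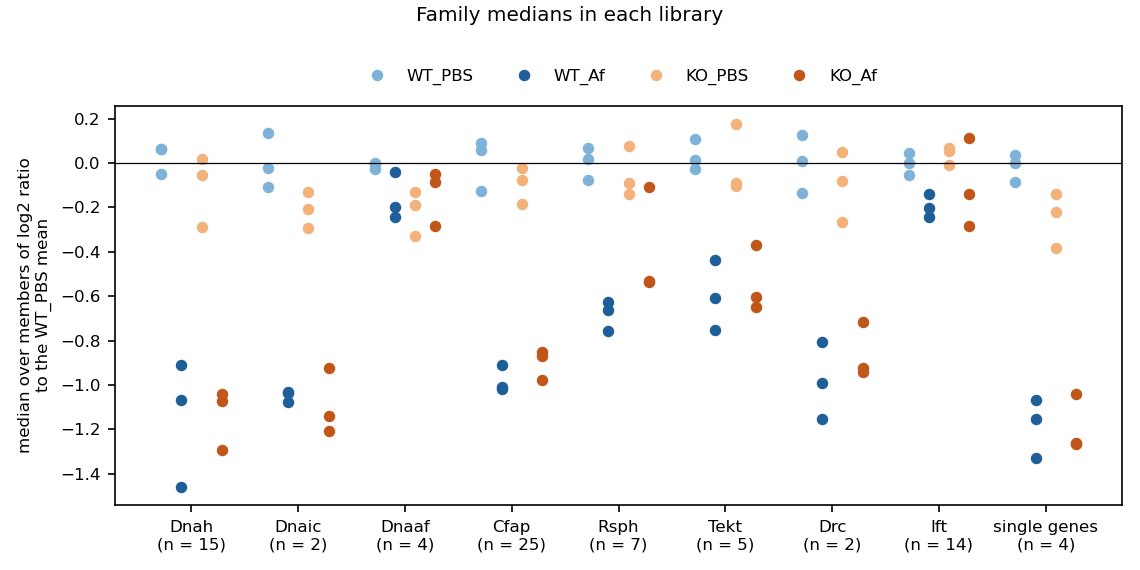
Median over the members of each family of the log2 ratio to the WT_PBS mean (y axis), 1 point per library, coloured by group; the single genes are Hydin, Foxj1, Ccdc39 and Ccdc40. The Dnah, Dnaic, Cfap, Tekt, Drc and single-gene medians of all Af libraries lie below those of all PBS libraries, while the Dnaaf, Rsph and Ift medians overlap.

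Most members called lower were so in both genotypes. The WT and KO contrasts compare different libraries, but the fit pooled the spread of all 12 libraries for each gene. The calls in WT and KO are therefore not independent. 51 members were called lower in both, 8 in WT alone and 2 in KO alone, and 14 were not called in either. The remaining 3 members were called higher in 1 genotype. Across the 78 members the WT and KO differences had a Pearson r of 0.92 and a Spearman rho of 0.93, given as a description because genes are not independent replicates. Being called in 1 genotype and not in the other is not a difference between genotypes, and no member passed the interaction test in limma, as given further on. Without WT_PBS 17 and KO_Af 12 the counts were 60 lower and 1 higher in WT, and 56 lower and 2 higher in KO. Over all 16126 genes that fit called 4393 lower and 4474 higher in WT, and 4707 lower and 4719 higher in KO.

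**Figure D2:**
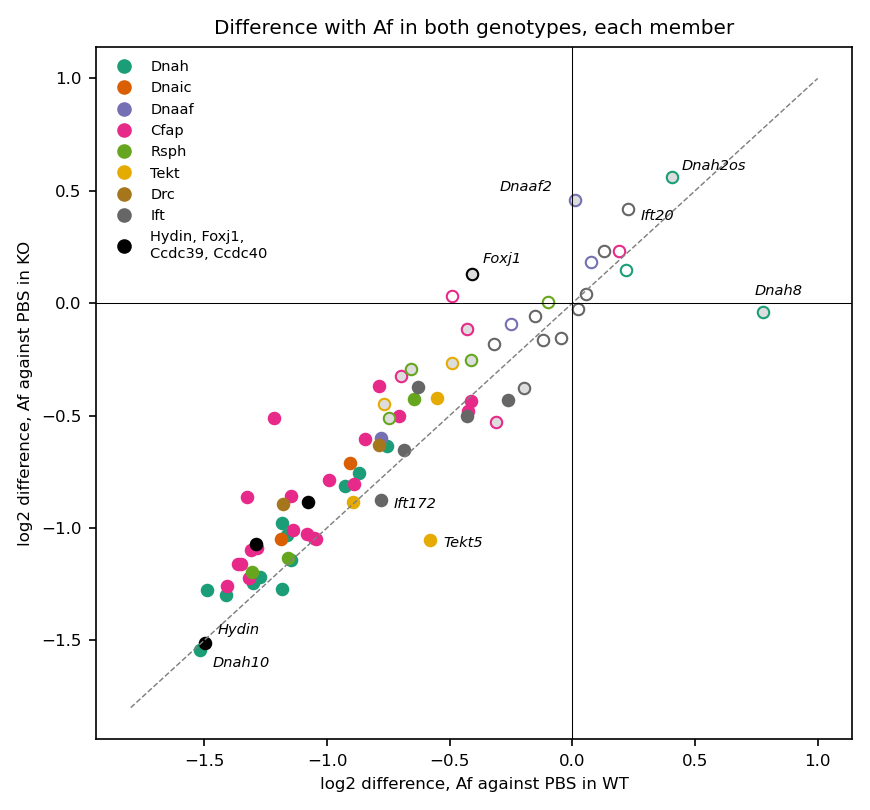
Log2 difference with Af in WT (x axis) against that in KO (y axis) for each of the 78 members, coloured by family; filled points were called in both genotypes, grey-filled points in 1 and open points in neither, and the dashed line marks equal differences. Most members lie near the line in the lower left, with Hydin and Dnah10 at the far end and Dnah8, Dnah2os, Dnaaf2 and Foxj1 away from it.

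Hydin, the central pair gene whose loss causes immotile or stiffly beating cilia, had some of the largest differences. Its level (ENSMUSG00000059854.8, GRCm38 chr8:110266977-110610253) was 24.3, 26.3 and 23.6 CPM in WT_PBS and 7.87, 7.96 and 9.55 CPM in WT_Af. In KO it was 25.6, 24.3 and 19.3 CPM with PBS and 6.10, 7.77 and 9.60 CPM with Af. Every Af library was thus below every PBS library, by more than the spread within any group. The log2 difference was -1.50 (SE 0.16) in WT, 2.82-fold lower (limma adjusted p = 1.84e-05), and -1.51 in KO, 2.85-fold lower (limma adjusted p = 1.21e-05).

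Ccdc39 and Ccdc40 form the ruler that sets the spacing of inner dynein arms and radial spokes. Ccdc39 (chr3:33812362-33844310) was at 24.6, 22.3 and 20.5 CPM in WT_PBS and 8.16, 8.78 and 9.70 CPM in WT_Af, and at 17.3, 18.7 and 16.7 CPM in KO_PBS and 8.53, 7.08 and 8.71 CPM in KO_Af. Its 2 exposure groups did not overlap in either genotype, and the log2 difference was -1.29 (SE 0.11) in WT and -1.07 in KO (limma adjusted p = 5.18e-06 and 1.32e-05). Ccdc40 (chr11:119228572-119265238) went with its partner: its mean was 27.5 ± 2.01 CPM (SD, n = 3) in WT_PBS, 12.8 ± 1.38 in WT_Af, 26.1 ± 3.23 in KO_PBS and 13.9 ± 2.05 in KO_Af. That is a log2 difference of -1.08 in WT and -0.88 in KO, called in both.

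The dynein arms, the motors themselves, were lower as a class. Of the 15 Dnah rows 12 were called lower in WT and 12 in KO, with medians of -1.16 and -1.03. That is 80% in each, against 25.6% and 29.2% of all genes. Dnah10, an inner arm heavy chain, had the largest difference of any member: 18.8, 19.4 and 15.8 CPM in WT_PBS fell to 4.46, 5.86 and 7.94 CPM in WT_Af, and 16.3, 15.9 and 14.3 CPM in KO_PBS fell to 3.62, 5.93 and 5.71 CPM in KO_Af. The groups did not overlap. Its log2 difference was -1.52 (SE 0.20) in WT and -1.54 in KO (limma adjusted p = 1.07e-04 and 7.01e-05). The outer arm heavy chains Dnah5, Dnah9 and Dnah11, named here after their values were seen because they are the motors of the outer arm, had WT differences of -1.27, -1.15 and -1.41 and KO differences of -1.22, -1.14 and -1.30, all called. Reads of the near-identical copies Dnah7a, Dnah7b and Dnah7c can be split between them, so their separate values are uncertain, although each was called lower in both genotypes.

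Both intermediate chains of the outer arm, which anchor the heavy chains, were lower. Dnaic1 was at 13.4 ± 1.75 CPM (SD, n = 3) in WT_PBS and 5.58 ± 0.369 in WT_Af, a log2 difference of -1.19, with -1.05 in KO. Dnaic2 was at 19.4 ± 1.85 and 10.1 ± 0.477 CPM, a difference of -0.91, with -0.71 in KO. All 4 differences were called, and no library of an Af group reached the PBS group of its genotype.

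The other 3 Dnah rows did not follow the class. Dnah8, a heavy chain best known from sperm, was at 19.5, 30.1 and 25.1 CPM in WT_PBS and 62.8, 40.7 and 29.9 CPM in WT_Af. The WT groups overlap, since the lowest Af library lies under the highest PBS library. It was called higher in WT (log2 0.78, SE 0.26, limma adjusted p = 0.0239), but not without WT_PBS 15 (adjusted p = 0.0902), WT_PBS 17 (0.0507) or WT_Af 18 (0.0989). In KO it was at 23.6, 36.6 and 29.98 CPM with PBS and 25.4, 35.1 and 26.8 CPM with Af, a log2 difference of -0.04. Its exons overlap 2 other annotated genes on the opposite strand, whose reads cannot be told apart without strand. Dnah17, the other exception, was at 0.708 to 2.07 CPM over all libraries and was called in neither genotype.

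Dnah2os was called higher in KO, while Dnah2, on the other strand, fell in both genotypes. The antisense RNA was at 2.56 to 3.96 CPM in KO_PBS and at 6.25, 4.09 and 4.55 CPM in KO_Af, with every KO_Af library above KO_PBS (log2 0.56, limma adjusted p = 0.0400). The highest value is that of KO_Af 12, and without it the difference was 0.40 (adjusted p = 0.140); the call was also lost without KO_PBS 9 or 10 or KO_Af 14 (adjusted p of 0.0580 to 0.146). With the length trend removed the KO difference was 0.16 (adjusted p = 0.488). In WT the difference was 0.40 (adjusted p = 0.132). Dnah2 had differences of -1.19 in WT and -1.27 in KO. The exons of the pair overlap, so their reads are uncertain in both.

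**Figure D3:**
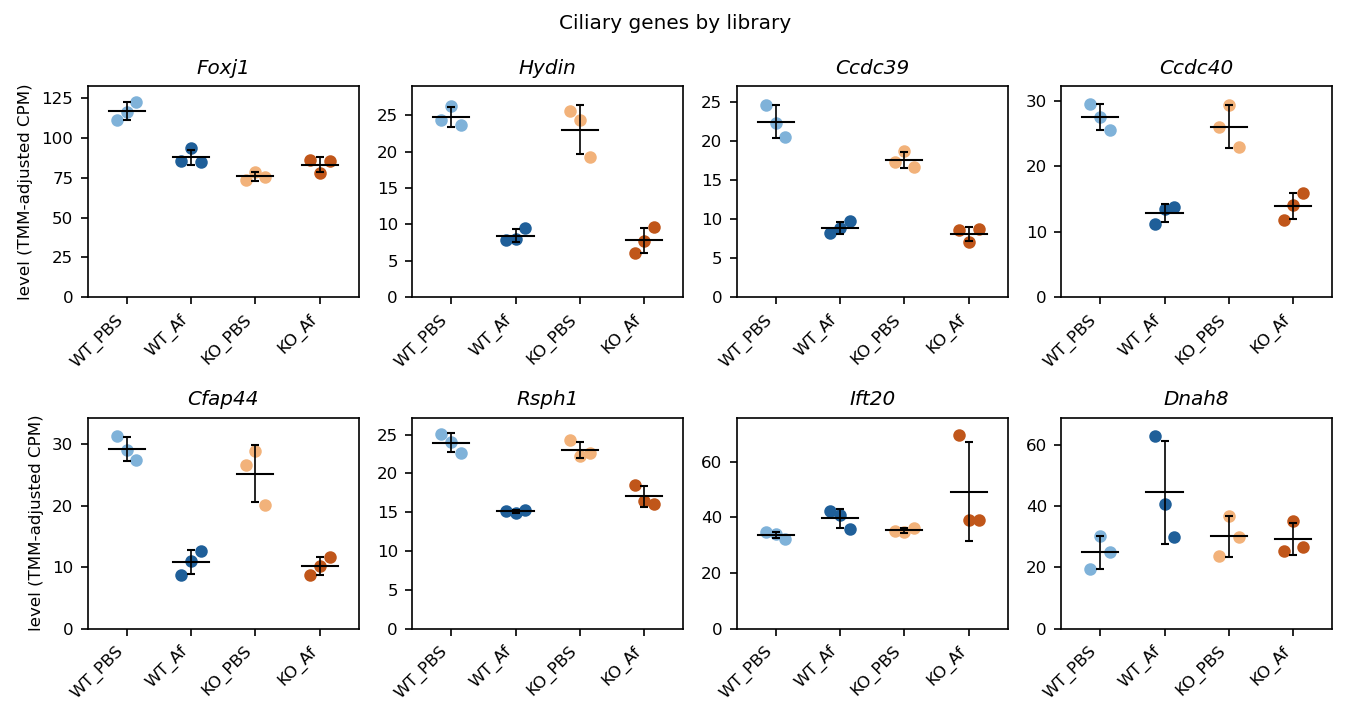
TMM-adjusted CPM (y axis, from 0) of 8 members in each library, coloured by group; bars mark the mean and SD of 3 libraries. Hydin, Ccdc39, Ccdc40, Cfap44 and Rsph1 are lower in all Af libraries than in any PBS library, Foxj1 is highest in the 3 WT_PBS libraries, Ift20 has 1 high KO_Af library and Dnah8 1 high WT_Af library.

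The assembly factors act before the arms enter the cilium. Of the 4 members 1 was called lower in WT and 1 in KO, with medians of -0.12 and 0.05, and this share of 25% is at or under that of all genes (25.6% and 29.2% lower). That member was Dnaaf1, which fell from 8.22 ± 1.34 CPM (SD, n = 3) in WT_PBS to 4.54 ± 0.397 in WT_Af, and from 7.42 ± 1.47 in KO_PBS to 4.70 ± 0.734 in KO_Af. Its log2 differences were -0.78 and -0.60, both called. Dnaaf2 was at 12.1, 11.9 and 12.2 CPM in WT_PBS and 14.6, 12.7 and 9.70 CPM in WT_Af, with no call. In KO it was at 10.4, 9.59 and 9.36 CPM with PBS and 14.4, 13.3 and 13.2 CPM with Af, without overlap, and was called higher (log2 0.46, SE 0.13, limma adjusted p = 0.00965). Dnaaf5 had differences of 0.08 in WT and 0.18 in KO, neither called. All 4 Dnaaf genes have exons that overlap another annotated gene.

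The Cfap proteins decorate the doublets, the central pair and the inner arms, and they were the largest family. In WT 22 of 25 were called lower (88%, against 25.6% of all genes) and in KO 21 of 25 (84%, against 29.2%). The medians were -1.04 and -0.80, and 0 were called higher in either. Cfap44, part of a tether of an inner arm dynein, was at 31.3, 29.0 and 27.4 CPM in WT_PBS and at 8.78, 11.0 and 12.6 CPM in WT_Af. In KO it was at 26.7, 28.9 and 20.1 CPM with PBS and 8.73, 10.2 and 11.7 CPM with Af. No Af library came near a PBS library, and the log2 difference was -1.41 (SE 0.16) in WT and -1.26 in KO, the lowest of the family in both. Cfap126 was lower by -0.71 in WT and -0.50 in KO, but KO_Af 12, at 27.3 CPM, lay within the KO_PBS range of 23.9 to 31.9 CPM. Its KO call was lost without KO_PBS 9 or 10 or KO_Af 13 or 14 (adjusted p of 0.0686 to 0.138). Cfap36, at the top of the family, had differences of 0.19 and 0.23 and was called in neither.

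Radial spokes carry signals from the central pair to the dynein arms. Of 7 Rsph genes 6 were called lower in WT (85.7%, against 25.6% of all genes), with a median of -0.66. In KO 3 were called lower, with a median of -0.43. That share of 42.9% is not far above the 29.2% of all genes. Rsph4a, a spoke head protein, was at 22.6, 21.5 and 20.4 CPM in WT_PBS and 6.77, 8.55 and 10.2 CPM in WT_Af, and its KO means were 21.7 ± 2.42 CPM (SD, n = 3) with PBS and 9.14 ± 0.791 with Af. Its log2 difference was -1.30 in WT and -1.20 in KO. Rsph1 fell less, from 23.9 ± 1.21 to 15.1 ± 0.204 CPM in WT (log2 -0.65) and from 23.1 ± 1.04 to 17.0 ± 1.33 CPM in KO (log2 -0.43), both called. Rsph3a was at 26.6 to 33.1 CPM across all 12 libraries, with differences of -0.10 in WT (95% interval -0.29 to 0.09) and 0.00 in KO (-0.19 to 0.20). It and Rsph3b are near copies whose reads may be shared.

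Tektins are filaments inside the doublet, and the Drc proteins form the elastic link between doublets. All 5 Tekt genes were called lower in WT and 3 in KO, with medians of -0.58 and -0.45. These shares of 100% and 60% compare with 25.6% and 29.2% of all genes. But Tekt3 had met the level filter through PBS libraries only, so its lower call in WT was favoured by the filter. That call was also lost in some fits that left out 1 library, as was the call of Tekt4 in each genotype. Among the WT calls of the family only that of Tekt2 held in every such fit. Tekt2 was at 7.97 ± 0.592 CPM (SD, n = 3) in WT_PBS and 4.08 ± 0.583 in WT_Af, and at 8.65 ± 0.361 and 4.48 ± 0.683 in KO, with differences of -0.89 and -0.88. Tekt1 was lower by -0.49 in WT, while in KO its difference of -0.26 was not called and KO_Af 12, at 11.7 CPM, lay inside the KO_PBS range of 10.4 to 12.2 CPM. The WT call of Tekt1 was lost without WT_PBS 16 (adjusted p = 0.0559) or WT_Af 20 (0.0659). Tekt5 was lower by -0.58 in WT and -1.06 in KO, and its WT call was lost without WT_PBS 16 or 17 or WT_Af 19 or 20 (adjusted p of 0.0975 to 0.130). Both Drc genes were lower. Drc1, required for the regulatory complex to assemble, was at 18.5, 15.2 and 14.2 CPM in WT_PBS and 6.24, 6.45 and 7.56 CPM in WT_Af (log2 -1.18), and its KO difference was -0.89. Drc7 had differences of -0.79 and -0.63, called in both.

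Intraflagellar transport genes had smaller differences in the median than the axonemal families. Of 14 Ift genes 5 were called lower in WT (35.7%) and 6 in KO (42.9%), not far above the 25.6% and 29.2% of all genes called lower. Both medians were -0.17, whereas the 64 members outside Ift had medians of -0.90 and -0.80. Ift172, the largest subunit of the anterograde train, had the lowest value: 56.5, 57.2 and 57.6 CPM in WT_PBS against 33.9, 30.9 and 34.6 CPM in WT_Af. In KO it was at 52.8, 57.4 and 53.2 CPM with PBS and 26.2, 34.7 and 28.03 CPM with Af. The groups were well separated, with log2 differences of -0.78 (SE 0.10) and -0.88. Ift20 lay at the other end: 34.6, 34.1 and 32.4 CPM in WT_PBS, 42.2, 40.9 and 35.7 CPM in WT_Af, 35.0, 34.5 and 36.3 CPM in KO_PBS, and 69.6, 38.8 and 39.1 CPM in KO_Af, where KO_Af 12 alone stood high. Its differences of 0.23 and 0.42 did not pass the limma test (adjusted p = 0.304 and 0.0634).

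Within the Ift family the limma calls divided by gene length. Of the 7 Ift genes with under 4 kb of merged exon 0 were called lower in either genotype. Of the 7 with 4 kb or more 5 were lower in WT and 6 in KO. Over all genes tested the share called lower also rose with length. In WT it was 12.1% under 2 kb, 21.6% at 2 to 4 kb, 29.2% at 4 to 8 kb and 40.6% at 8 kb or more. In KO it was 13.4%, 24.5%, 33.2% and 46.9%. The division within Ift was less complete with the trend on length taken out of each library, an alternative chosen after seeing the data. There 1 of the 7 shorter genes was lower in WT (Ift43) and 3 were lower in KO (Ift27, Ift43 and Ift52), beside 4 and 5 of the 7 longer ones. The family's counts were then 5 lower in WT and 8 in KO, with medians of -0.15 and -0.22.

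Length moved with the Af difference over the whole transcriptome. For all genes tested the median log2 difference in WT ran from 0.30 under 2 kb through 0.07 and -0.08 to -0.25 at 8 kb or more, and in KO from 0.37 through 0.07 and -0.10 to -0.30. The members outside Ift were below these values in every class: -0.66, -0.79, -0.91 and -1.18 in WT, and -0.45, -0.51, -0.71 and -1.12 in KO. Across the 78 members the Pearson r between log2 length and the difference was -0.27 in WT and -0.43 in KO, and across 16099 genes it was -0.21 and -0.26, both descriptions across genes. With the same trend on length removed, 61 members were lower and 2 higher in WT, with a median of -0.82. In KO 58 were lower and 2 higher, with a median of -0.64. Over all 16099 genes in that fit 4026 were lower and 4369 higher in WT, and 4382 lower and 4810 higher in KO. The Dnah median then was -0.87 in WT and -0.71 in KO, smaller than the values above, and the Rsph and Tekt medians were larger, at -0.85 and -0.74 in WT.

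**Figure D4:**
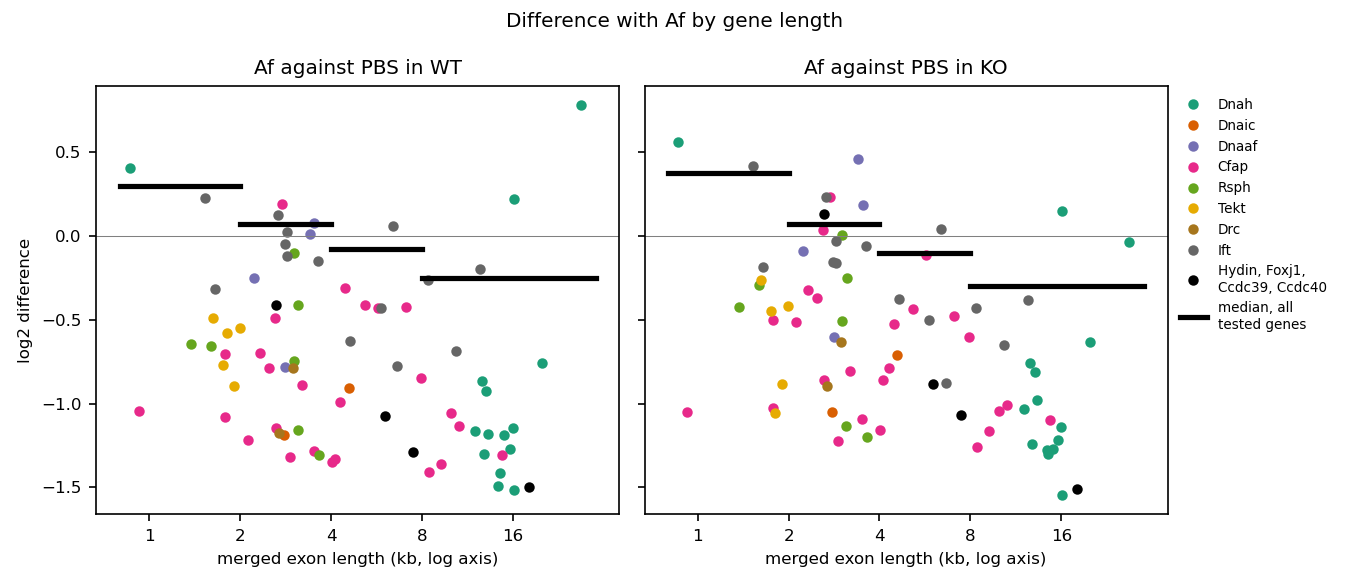
Log2 difference with Af (y axis) against merged exon length in kb (x axis, log scale) for the 78 members, in WT and KO, coloured by family; black bars are medians of all tested genes in 4 length classes. The bars fall from 0.30 to -0.25 in WT, and most members outside Ift lie below the bar of their class.

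Foxj1 switches on the motile cilium genes, and its highest levels were in unexposed WT lung. The level (ENSMUSG00000034227.7, chr11:116330704-116335399) was 112, 116 and 123 CPM in WT_PBS and 85.5, 93.4 and 84.6 CPM in WT_Af. In KO it was 73.3, 78.7 and 75.7 CPM with PBS and 86.4, 78.1 and 85.2 CPM with Af. All 3 WT_PBS libraries were above the other 9, and the 2 KO groups overlapped. The difference with Af in WT was -0.41 (SE 0.07, limma adjusted p = 7.34e-04), a smaller difference than for most of the axonemal genes, and the KO difference was 0.13 (95% interval -0.03 to 0.29, limma adjusted p = 0.143).

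Between genotypes Foxj1 was the 1 member called in the main limma fit and in edgeR. DESeq2 called 2 members with PBS and 3 for the average, beside 1216 and 1147 of all 16126 genes tested. Limma with array weights called 6 members with PBS, 3 under Af and 8 for the average, beside 2646, 2204 and 3224 of all genes. Foxj1 was among those called with PBS and for the average by each of these fits. With PBS it was lower in KO by -0.62 (SE 0.07, 95% interval -0.78 to -0.46, limma adjusted p = 0.00182), from 117 ± 5.55 to 75.9 ± 2.72 CPM (SD, n = 3). That is 1 of 78 members (1.28%), against 3.55% of all genes called in this contrast. The call was kept in all 6 fits that left out 1 of the libraries compared, with a highest adjusted p of 0.0150. Under Af the KO difference was -0.08 (95% interval -0.24 to 0.08), and averaged over both exposures it was -0.35, again the 1 member called by limma, against 2.16% of all genes. Over all members the median difference between KO and WT was -0.08 with PBS and 0.06 under Af, against 0.01 and 0.00 over all genes tested.

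Under Af 0 members were called between genotypes by limma, edgeR and DESeq2, and limma called 0.0868% of all genes. At an unadjusted p under 0.05 limma had 7 of 78 members and 1807 of 16126 genes. For the interaction, whether the Af difference itself differs between genotypes, limma called 0 members and 0.0062% of all genes, which is 1 gene. Here 4 of 78 members and 1750 of 16126 genes had an unadjusted p under 0.05 in limma. The Foxj1 interaction was 0.54 (SE 0.10, limma adjusted p = 0.0893). It was called by DESeq2 (0.55, adjusted p = 3.85e-04) and by limma with array weights (adjusted p = 0.00268), and not by edgeR (0.54, adjusted p = 0.101). Ccdc39 was lower in each KO_PBS library than in any WT_PBS library, by -0.34. It did not pass the main limma test (adjusted p = 0.130) but was called by DESeq2 (-0.36, adjusted p = 0.0495) and by limma with array weights (-0.31, adjusted p = 0.0226). Tekt5 went the other way, at 5.08, 5.69 and 4.48 CPM in KO_PBS against 2.77, 3.69 and 3.54 CPM in WT_PBS (log2 0.54, 95% interval 0.07 to 1.02, limma adjusted p = 0.220).

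Genes of the same structures with other names, listed by role, were described alongside. All 6 measured light and intermediate chains outside the symbol rule were lower in both genotypes (medians -0.89 and -0.74). Among them the outer arm light chain gene Dnal1 had differences of -1.07 and -1.02. Of 5 docking complex genes 4 were lower in WT (80%) and 3 in KO (60%), and Efcab1 was lower by -1.07 in both. Of 24 other axonemal genes 20 were lower in WT (83.3%) and 17 in KO (70.8%), with medians of -0.76 and -0.56. Among them the central pair genes Spag17 and Spag16 were at -1.28 and -1.15 in WT and -1.10 and -0.93 in KO. Of 24 further transport genes 16 were lower in WT (66.7%), and in KO 12 were lower (50%) and 1, Hspb11, higher (medians -0.41 and -0.28). Over all genes tested 25.6% were lower in WT and 29.2% in KO. Bbs2, of the BBSome that moves membrane cargo, was lower by -1.04 and -1.19.

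Dynein assembly genes outside the rule were called at shares near or below those of all genes. Of 9 tested, 3 were higher (33.3%) and 2 lower (22.2%) in WT, against 26.2% and 25.6% of all genes. In KO 3 were higher (33.3%) and 1 lower (11.1%), against 28.7% and 29.2%. The medians were -0.25 and 0.05. The chaperone genes Ruvbl1 and Pih1d1, which many cell types use, had WT differences of 0.41 and 0.47 and KO differences of 0.41 and 0.55. Zmynd10, which is specific to dynein assembly in ciliated cells, was lower by -0.39 and -0.60.

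Regulators that start the formation of multiple cilia were mostly higher with Af. Of 13 tested, 8 were higher (61.5%) and 1 lower in WT (median 0.70), where 26.2% of all genes were higher. In KO 8 were higher (61.5%) and 3 lower (median 0.58), where 28.7% of all genes were higher. Ccno, needed for centriole amplification, had differences of 1.32 in WT and 1.38 in KO (limma adjusted p = 3.71e-04 and 2.06e-04). Its level was 3.85, 6.16 and 5.38 CPM in WT_PBS and 15.7, 13.8 and 11.0 CPM in WT_Af, with no overlap. Mcidas, a coactivator in the pathway, had differences of 0.99 and 1.41, from 1.35 ± 0.533 to 3.24 ± 1.28 CPM (SD, n = 3) in WT. Plk4, the kinase of centriole duplication, was higher by 1.27 and 1.29, and dividing cells use it as well. Trp73, which acts upstream of Foxj1, was lower by -0.60 and -0.43, while Rfx2 and Rfx3 were called lower in KO alone (-0.57 and -0.49).

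**Figure D5:**
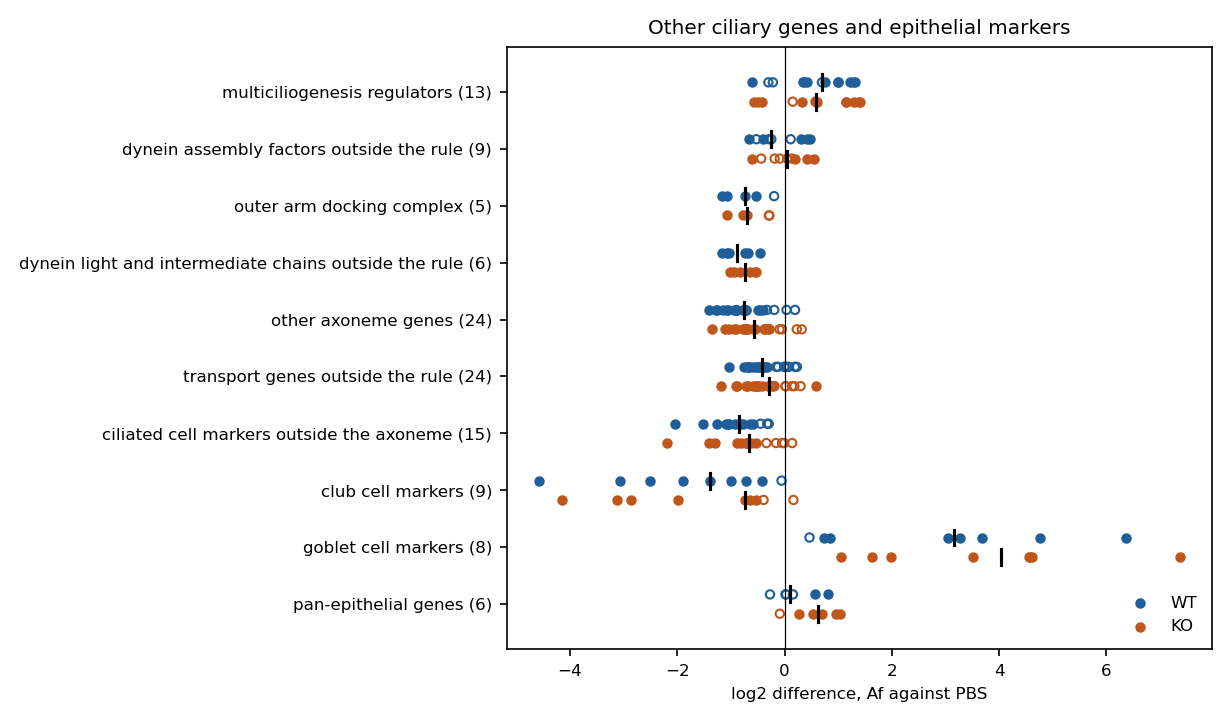
Log2 difference with Af (x axis) of each tested gene in 10 lists (number of genes in brackets), in WT and KO; filled points were called, open points were not, and black ticks are list medians. The structural lists and the ciliated and club cell markers lie mostly below 0, the multiciliogenesis regulators and goblet cell markers mostly above.

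Markers of the cell types around the cilia moved in the same contrasts. Over all genes tested 25.6% were called lower in WT and 29.2% in KO. Of the 15 ciliated cell markers outside the axoneme 12 were lower in WT (80%) and 10 in KO (66.7%), with medians of -0.84 and -0.66. Their sum fell from 1558 to 1849 CPM in WT_PBS to 477 to 616 CPM in WT_Af, and from 1345 to 1775 CPM in KO_PBS to 405 to 692 CPM in KO_Af. Sec14l3 had the lowest difference of these (-2.05 and -2.20), and Tppp3, a tubulin binding protein, had -1.26 and -1.41. Of 9 club cell markers 8 were lower in WT (88.9%) and 7 in KO (77.8%). Their sums were 19540 to 23035 CPM in WT_PBS, 10485 to 10975 in WT_Af, 22254 to 24751 in KO_PBS and 8435 to 16126 in KO_Af. Of 8 goblet cell markers 7 were higher in WT (87.5%, against 26.2% of all genes) and 8 in KO (100%, against 28.7%). Their sums were 114 to 153 CPM in WT_PBS, 1466 to 1760 in WT_Af, 60.4 to 105 in KO_PBS and 1898 to 2004 in KO_Af. The mucin gene Muc5ac was higher by 3.68 and 4.56.

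Genes shared by epithelial cells were not among those called lower. Of 6 pan-epithelial genes 2 were higher in WT (33.3%, near the 26.2% of all genes) and 5 in KO (83.3%, against 28.7%), and 0 were lower in limma, with sums of 768 to 839 CPM in WT_PBS, 845 to 1033 in WT_Af, 661 to 779 in KO_PBS and 978 to 1032 in KO_Af. Of 6 basal cell markers 1 was higher in WT (16.7%) and 3 in KO (50%). Alveolar type 1 markers were lower in 5 of 6 in both genotypes (83.3%), and 1 was higher in KO. Alveolar type 2 markers were lower in 3 of 7 in both (42.9%), against 25.6% and 29.2% of all genes. Of 6 leukocyte genes 4 were higher (66.7%) and 1 lower in WT (median 0.97). In KO 2 were higher (33.3%, near the 28.7% of all genes) and 1 lower (median -0.20). Leukocyte sums were 3961 to 6741 CPM in WT_PBS, 2144 to 3068 in WT_Af, 4963 to 5094 in KO_PBS and 2013 to 3921 in KO_Af. A sum is set mainly by the most abundant genes of a list, and in WT it fell although 4 of the 6 genes were called higher. The 1 gene called lower in WT had a log2 difference of -1.41. The part of these cell type shifts in the members' differences was not tested.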

How the data were processed

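For each gene the deposited table gives a linear signal in every library: CPM that the authors had adjusted by TMM scaling, per its name. The submitters' processing notes name cutadapt 1.18, STAR 2.7.6a and RSEM 1.3.0 and the builds GRCm38 and GRCh38 without their roles. RNA was extracted with a Qiagen RNEasy kit and libraries made with a TruSeq mRNA kit, per the labels' protocols. No source used here gives the strand setting. All values were whole multiples of 1 read (tolerance 0.01), so reads could be recovered.

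From these values, log2(CPM + 0.5) was fitted with limma 3.58.1 (mean-variance trend, 1 model of 4 groups) over the 16126 genes that reached 1 CPM in 3 or more libraries, with Benjamini-Hochberg adjustment over all of them and calls at 0.05. Fold changes on this scale understate those of low genes. The script was tested on simulated data. edgeR 4.0.16 and DESeq2 1.42.0 were run on the recovered reads as alternatives, beside other pseudocounts, filters, scalings, variance models and libraries left out. Exon lengths and gene coordinates are from GENCODE M21 on GRCm38, and promoter windows from RefSeq.

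The members and lists were chosen with earlier results of these data known. Named members are the single genes, the highest per length and the extremes of each family, members called between genotypes, called higher, or called with a sign that differs between genotypes; others were named after their values were seen. Tests of single members come from the fit over all genes, and no family or list was tested as a set.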

Additional observations from a re-analysis of the deposited data

Results flagged for a closer look

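One result met a rule for a closer look. The Af difference of Foxj1 differed between genotypes by 0.55 (log2) in DESeq2's test of the interaction (adjusted p = 3.85e-04), with the 3 WT libraries lower under Af than under PBS and the KO groups overlapping. The same interaction was 0.54 in limma (adjusted p = 0.0893) and 0.54 in edgeR (adjusted p = 0.101), so that it did not pass in either. Over the limma fits that left out 1 library it ran from 0.51 to 0.59, with adjusted p-values from 0.0301 (without KO_Af 13) to 0.241.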

How the results depend on the processing

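The counts of members called with Af stayed within 1.5 times under every alternative run: 54 to 68 in WT and 49 to 66 in KO, both highest with array weights. Array weights also called more of all 16126 genes: 10817 in WT and 11624 in KO, against 8361 and 9331 in the main fit. Between genotypes, where limma called 1 member (PBS), 0 (Af), 1 (average) and 0 (interaction), array weights called 6, 3, 8 and 2, and DESeq2 called 2 with PBS, 3 for the average and 1 for the interaction. Over all 16126 genes array weights called 2646, 2204, 3224 and 1602 in the same order. DESeq2 called 1216 genes with PBS, 1147 for the average and 362 for the interaction. The average gave 2 with the length trend removed. Leaving out 1 library gave 1 to 2 for the average (2 without KO_Af 12 or 13) and 0 to 1 for the interaction (1 without KO_Af 13). The cause was not tested. The KO difference of Dnah8, -0.04, ran from -0.20 to 0.11 when 1 library was left out, was 0.0503 without WT_PBS 17 and KO_Af 12 together and 0.45 with the length trend removed. Of the single-member values under alternatives, 814 kept direction and call, 28 lost the call, 4 gained it and 5 changed sign. In the 6 fits per genotype that each left out 1 of the libraries compared, 53 of 60 WT calls and 49 of 55 KO calls held throughout; lost in some were Dnah8, Ift140, Rsph3b, Tekt1, Tekt3, Tekt4 and Tekt5 in WT (highest adjusted p 0.130) and Cfap126, Cfap206, Cfap99, Dnah2os, Dnah7b and Tekt4 in KO (0.163). No paired analysis was possible because each library has a number of its own. Depth limits the 5 members near 1 CPM.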
